A study of Nematostella vectensis with 84 samples.

Results

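Fine cluster 3 of the authors' clustering, annotated as Gastrodermis, held 655 of the 12352 cells in the deposited table, or 5.30%. Its members were all cells that carried this cluster annotation, and no measured value was used to pick them here. It was the fourth largest of 45 fine clusters. It shared the broad cluster Gastrodermis (1859 cells) with fine cluster 2, which had 667 cells, with cluster 8, annotated as parietal muscle, which had 412 cells, and with cluster 30, which had 125 cells. Cluster 3 thus supplied 35.2% of the broad cluster, next to 35.9% from cluster 2, 22.2% from cluster 8 and 6.72% from cluster 30.

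The gastrodermis is the inner epithelium of a cnidarian. It lines the gastric cavity of the polyp, covers the mesenteries that fold into that cavity, takes up food, and includes muscle cells such as those of the parietal muscle. KikGR is a photoconvertible reporter: newly made protein fluoresces green, and light turns it red irreversibly. After a complete conversion, old protein is red and protein made since then is green, so that the colour of a cell reflects when its reporter was made and how long it lasted. Whether conversion was complete was not examined here.

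All cells came from adults of the starlet sea anemone Nematostella vectensis, aged 6 to 8 weeks, that were heterozygous for a stable KikGR transgene under 1 driver per line. Elav>KikGR gave 8 dissociations with 2764 cells, FoxL2>KikGR gave 10 with 6137 cells, and SoxC>KikGR gave 9 with 3451 cells. Elav is named for a family of neuronal RNA-binding proteins, while FoxL2 and SoxC are named for transcription factors. Every animal had been photoconverted, and tissue of the body wall and mesenteries was dissociated 2, 4 or 7 days later. A treatment with 1% DMSO was recorded for 18 dissociations, namely 4 of Elav, 5 of FoxL2 and all 9 of SoxC. No treatment was recorded for the other 9, which were 4 of Elav and 5 of FoxL2 and are called untreated here. The Elav line was sampled in 3 dissociations on day 2, 2 on day 4 and 3 on day 7. The FoxL2 line was sampled in 4, 4 and 2 on these days and the SoxC line in 1, 3 and 5.

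A sorted cell is a cell that fell into a reporter-positive gate, so every share below is a share of sorted cells and not of the tissue. How many animals went into a dissociation, and how many founders each line goes back to, is not given in the sources used here. The 84 libraries held 102 to 178 cells each and the 27 dissociations 245 to 995. The Gastrodermis annotation was not checked against marker genes, because the cell table holds categories only and expression was not analysed here.

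Cluster 3 was present in all 27 dissociations and in 74 of the 84 libraries. Its share of all cells averaged 5.67% ± 4.79 (SD, n = 27 dissociations), with a median of 5.03%. A dissociation held between 2 and 113 of its cells, and the share ran between 0.340% and 16.8%. The 95% Wilson intervals of these extremes, which cover counting error only, were 0.0932% to 1.23% and 14.0% to 19.9%.

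In the Elav line on day 2, cluster 3 made up 8.78% of cells in the DMSO dissociation, against 4.53% and 2.63% in the untreated ones. On day 4 it made up 9.83% and 6.50%, both with DMSO. On day 7 it made up 1.65% with DMSO, against 3.43% and 1.22% untreated. The highest Elav shares were thus found in DMSO dissociations of days 2 and 4, and the day 7 values of both kinds overlapped.

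In the FoxL2 line on day 2, cluster 3 made up 1.57% of cells with DMSO, against 0.340%, 1.68% and 2.27% untreated. On day 4 it made up 6 of 544 cells and 15.1% with DMSO, against 0.917% and 0.402% untreated. On day 7, where both dissociations had DMSO, it made up 7.28% and 6.34%. A single dissociation of day 4, number 15, held 113 of the 228 FoxL2 cells of cluster 3, and no other FoxL2 dissociation of days 2 and 4 exceeded 2.27%.

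In the SoxC line, where every dissociation had DMSO, cluster 3 made up 16.8% of cells in the only dissociation of day 2. On day 4 it made up 7.52%, 16.3% and 1.62%. On day 7 it made up 6.29%, 7.72%, 10.0%, 5.03% and 6.23%. The day 4 dissociations alone spanned nearly the whole range of the line, while the 5 of day 7 lay close together.

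**Figure D1:**
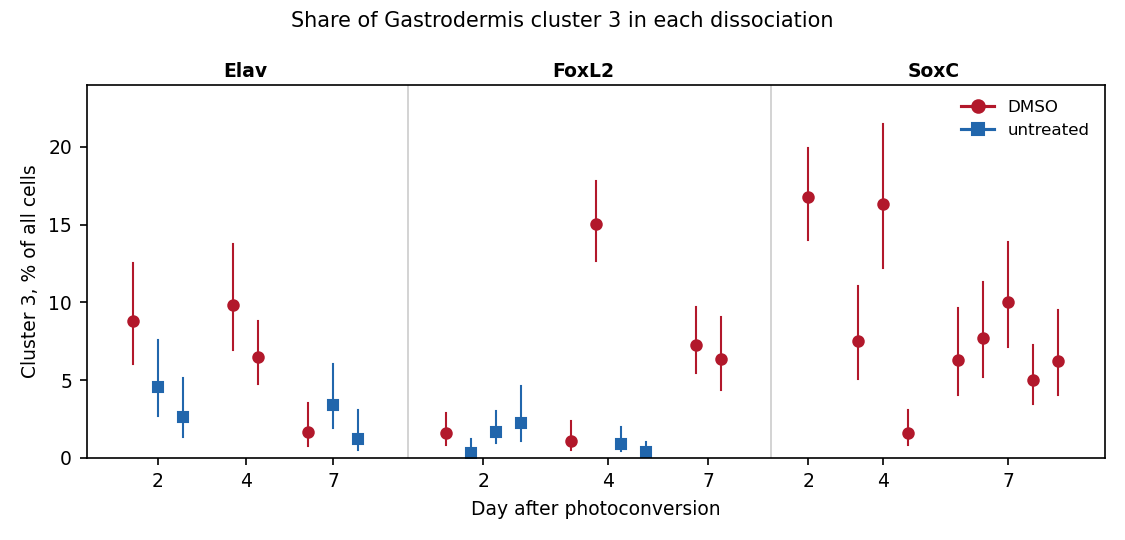
Share of cluster 3 among all cells (y axis, percent) in each of the 27 dissociations, by reporter line and by day after photoconversion (x axis). Points are dissociations, red circles with 1% DMSO and blue squares untreated, and bars are 95% Wilson intervals. The untreated dissociations reach 4.53% at most, while the highest DMSO value is 16.8%.

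By line, cluster 3 averaged 4.82% ± 3.24 of cells in Elav (n = 8), 3.70% ± 4.67 in FoxL2 (n = 10) and 8.62% ± 5.04 in SoxC (n = 9; SD over dissociations). FoxL2 minus SoxC was -4.92 percentage points. This difference did not pass the test (two-sided exact permutation p = 0.0421, adjusted over 45 clusters and 3 pairs of lines p = 0.0757). Elav minus SoxC was -3.79 points (exact permutation p = 0.0912, adjusted p = 0.147). Elav minus FoxL2 was 1.13 points (exact permutation p = 0.586, adjusted p = 0.717). The mean share of the broad cluster Neural 1 went with the line too, at 44.0% ± 12.2 of cells in Elav, 30.9% ± 13.6 in FoxL2 and 11.3% ± 3.07 in SoxC. With Neural 1 left out of the total, Elav minus SoxC was -1.31 points and Elav minus FoxL2 3.45 points (exact permutation tests, adjusted p = 0.773 and 0.377). FoxL2 minus SoxC was then -4.77 points (exact permutation test, adjusted p = 0.214).

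Many fine clusters did differ in share between lines. Of the 45, 62.2% passed the test between Elav and SoxC, 55.6% between FoxL2 and SoxC and 22.2% between Elav and FoxL2. Cluster 3 was in none of these sets, and neither was cluster 2. Cluster 2 averaged 5.42% ± 4.00 in Elav, 4.81% ± 3.64 in FoxL2 and 6.34% ± 3.07 in SoxC.

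The comparison of FoxL2 with SoxC depended on single dissociations. Without FoxL2 dissociation 15 the difference was -6.18 points (exact permutation test, adjusted p = 0.0102), and without SoxC dissociation 4 it was -5.79 points (adjusted p = 0.0409), both past the threshold. Treatment moved with the line as well, since SoxC had no untreated dissociation. Among DMSO dissociations alone, FoxL2 averaged 6.27% ± 5.64 (n = 5) and SoxC 8.62% ± 5.04 (n = 9). That difference of -2.34 points had an adjusted p of 0.600 (exact permutation test). Elav averaged 6.69% ± 3.64 (n = 4) with DMSO, and its difference from SoxC was -1.92 points (exact permutation test, adjusted p = 0.678).

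Within Gastrodermis the line order was the same at the top. Cluster 3 supplied 28.8% ± 9.21 of Gastrodermis cells in Elav (n = 8), 27.4% ± 12.7 in FoxL2 (n = 10) and 46.5% ± 21.8 in SoxC (n = 9). FoxL2 minus SoxC was -19.1 points and Elav minus SoxC -17.7 points. Unadjusted exact permutation p-values were 0.0219 for FoxL2 and 0.0333 for Elav. Adjusted over the 4 Gastrodermis clusters and 3 pairs they were 0.131 and 0.133, so neither difference passed. Elav minus FoxL2 was 1.37 points (exact permutation test, adjusted p = 0.872), and in the KikGR+ gate alone 9.08 points (adjusted p = 0.407). Of the 4 clusters, 25% passed between Elav and SoxC and 0% in each of the other pairs.

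SoxC dissociations 4 and 7, with the lowest and the highest share of the line, bore on these values in opposite directions. Without dissociation 4, the differences within Gastrodermis were -22.6 points for FoxL2 and -21.3 points for Elav (exact permutation tests, adjusted p = 0.0192 for both), past the threshold. Without dissociation 7 they were -13.2 points for FoxL2 and -11.8 points for Elav. Neither of these passed (exact permutation tests, adjusted p = 0.168 for both). Among DMSO dissociations alone the differences were -18.6 points for FoxL2 and -20.8 points for Elav, each with an adjusted p of 0.429 (exact permutation tests).

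The makeup of Gastrodermis varied between dissociations of the same line. Cluster 3 supplied between 11.5% and 36.7% of Gastrodermis cells in Elav, between 9.09% and 43.8% in FoxL2, and between 18% and 93.9% in SoxC. The top value belonged to SoxC dissociation 7, of day 7, in which 31 of 33 Gastrodermis cells were in cluster 3 and the other 2 in cluster 2. The next highest was SoxC dissociation 3 of day 4, with 62.5% (40 of 64 cells). Some dissociations had the opposite makeup. In Elav dissociation 27, cluster 3 held 11.5% of Gastrodermis cells next to 78.8% for cluster 2, and in FoxL2 dissociation 11 it held 12.5% next to 83.8%.

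**Figure D2:**
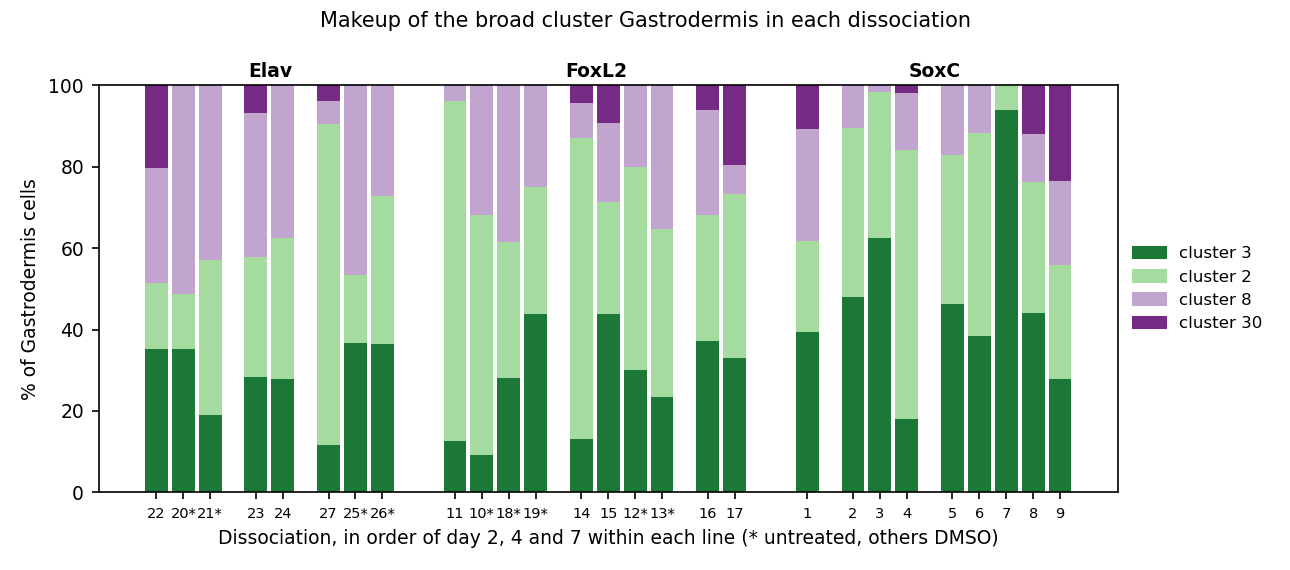
Share of clusters 3, 2, 8 and 30 (stacked colours) among the Gastrodermis cells of each dissociation (y axis, percent). Dissociations run by line and, within a line, by day (x axis), and an asterisk marks untreated ones. Cluster 3 fills 93.9% of the bar of SoxC dissociation 7 and 9.09% of that of FoxL2 dissociation 10.

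Over days, cluster 3 averaged 4.82% ± 5.48 of all cells on day 2 (n = 8), 6.59% ± 6.16 on day 4 (n = 9) and 5.52% ± 2.75 on day 7 (n = 10). The slope common to the 3 lines was -0.301 points per day (permutation within lines, p = 0.492, adjusted over 45 clusters p = 0.932). It was -0.595 with days permuted within line and treatment and -0.750 among DMSO dissociations alone (permutation tests, adjusted p = 0.898 and 0.819). This test called none of the 45 clusters (0%), and without adjustment p was under 0.05 for 3 of them (6.67%). The slopes of single lines were -0.725 points per day in Elav, 1.09 in FoxL2 and -1.31 in SoxC, each with an adjusted permutation p of 0.521 over the 9 slopes computed. Day and treatment were not balanced within lines: both FoxL2 dissociations of day 7 and both Elav dissociations of day 4 had DMSO.

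The share of cluster 3 within Gastrodermis averaged 27.8% ± 12.8 on day 2, 32.8% ± 15.7 on day 4 and 40.5% ± 21.1 on day 7. The common slope was 1.33 points per day (permutation within lines, p = 0.388, adjusted over 4 clusters p = 0.572), and 0% of the 4 clusters passed. The day 7 mean includes SoxC dissociation 7. Without any 1 of the dissociations the slope lay between 0.532 and 2.00 points per day.

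Both treatments were present in Elav on days 2 and 7 and in FoxL2 on days 2 and 4, with 5 DMSO and 9 untreated dissociations. Treatment was compared within these line and day groups only. In them, cluster 3 averaged 5.63% ± 6.16 of cells with DMSO (n = 5) and 1.93% ± 1.42 untreated (n = 9). Within groups, DMSO exceeded untreated by 5.20 points in Elav on day 2, by 0.139 in FoxL2 on day 2 and by 7.43 in FoxL2 on day 4, while in Elav on day 7 the difference was -0.668. The difference over all groups was 3.42 points and did not pass (exact permutation within groups, p = 0.125, adjusted over 45 clusters p = 0.225). Of the 45 clusters 11.1% passed, and without adjustment p was under 0.05 for 18 (40%).

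Without FoxL2 dissociation 15 the difference was 1.24 points (exact permutation test, adjusted p = 0.361). In the KikGR+ gate alone it was 2.47 points, and there without dissociation 15 it was 1.25 points (exact permutation test, adjusted p = 0.556). The other Gastrodermis clusters can be set beside it. Cluster 2 averaged 8.31% ± 3.06 with DMSO and 1.98% ± 1.30 untreated in the same groups, a difference of 6.53 points (exact permutation p = 0.00926, adjusted p = 0.0521). Clusters 2, 8 and 30 together averaged 13.3% ± 4.64 with DMSO and 4.62% ± 3.29 untreated.

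Other cells moved with the treatment as well. In the same groups the broad cluster Neural 1 made up 26.1% ± 9.31 of cells with DMSO and 48.0% ± 8.32 untreated. The share of sorted wells whose cell is in the cell table was 73.0% ± 6.19 with DMSO and 82.8% ± 4.33 untreated. Shares sum to the whole, and the part that these differences play in the share of cluster 3 was not tested. With Neural 1 left out of the total, the DMSO difference of cluster 3 was 3.77 points (exact permutation test, adjusted p = 0.433).

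Relative to Gastrodermis cells alone, the DMSO mean of cluster 3 was the lower one. It supplied 23.2% ± 15.2 of Gastrodermis cells with DMSO (n = 5) and 29.1% ± 10.6 untreated (n = 9), a difference within groups of -6.65 points (exact permutation p = 0.389, adjusted over 4 clusters p = 0.389). Leaving out 1 dissociation at a time gave -11.4 (without FoxL2 dissociation 15) to -1.60 points (without Elav dissociation 27). Of the 4 clusters, 50% passed this comparison. The difference was 8.04 points in Elav on day 2, -25.0 in Elav on day 7, -14.5 in FoxL2 on day 2 and 1.66 in FoxL2 on day 4, so its sign was not the same across the groups.

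The FoxL2 line was sorted through 3 gates, whereas Elav and SoxC cells came from the KikGR+ gate only. The gate called new KikGR+ was used for 2 dissociations and gave 88 cluster 3 cells among 657. The epithelial-depleted KikGR+ gate was used for 5 dissociations and gave 27 among 2568, with a mean share of 1.15% ± 0.782. The KikGR+ gate was used for 8 FoxL2 dissociations and gave 113 among 2912, with a mean of 3.18% ± 3.67. Gate and treatment moved together: both sorts through the new gate had DMSO, and all 5 epithelial-depleted sorts were untreated. In the KikGR+ gate the 5 FoxL2 dissociations with DMSO averaged 4.70% ± 3.90 and the 3 untreated ones 0.637% (0%, 1.91% and 0%). The epithelial-depleted mean of 1.15% was higher than the latter, but it includes dissociations 18 and 19, which had no KikGR+ sort. In the 3 dissociations with both of these gates, epithelial-depleted minus KikGR+ averaged -0.0324 points.

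In both dissociations sorted through the new gate, cluster 3 was more frequent there than in the KikGR+ gate. In dissociation 11 of day 2 it made up 3.27% of cells in the new gate (10 of 306), against 0 of 332 in the KikGR+ gate, which allows a share of up to 0.904%. In dissociation 15 of day 4 it made up 22.2% in the new gate, against 8.77% in the KikGR+ gate. Both pairs point the same way, and with 2 dissociations no test was made.

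Cluster 2 was higher in the new gate in the same dissociations. In dissociation 11 it made up 17.0% in the new gate, against 4.52% in the KikGR+ gate, and in dissociation 15 it made up 13.1%, against 6.27%. Of the Gastrodermis cells of dissociation 15, cluster 3 supplied 49.4% in the new gate and 35% in the KikGR+ gate.

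The epithelial-depleted gate can be set against the KikGR+ gate in 3 untreated dissociations. Cluster 3 made up 0.730%, 0.604% and 0.480% of cells in the epithelial-depleted gate of dissociations 10, 12 and 13, against 0%, 1.91% and 0% in their KikGR+ gate. The mean difference was -0.0324 points (exact sign-flip permutation p = 1, where 3 pairs cannot go below 0.25). This test called none of the 45 clusters (0%), and without adjustment p was under 0.05 for 0 of them. With at most 4 cluster 3 cells in any of these 6 sorts, a difference was not detectable at this depth. The other 2 epithelial-depleted sorts, dissociations 18 and 19 of day 2, gave 1.68% and 2.27% and had no sort through another gate.

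**Figure D3:**
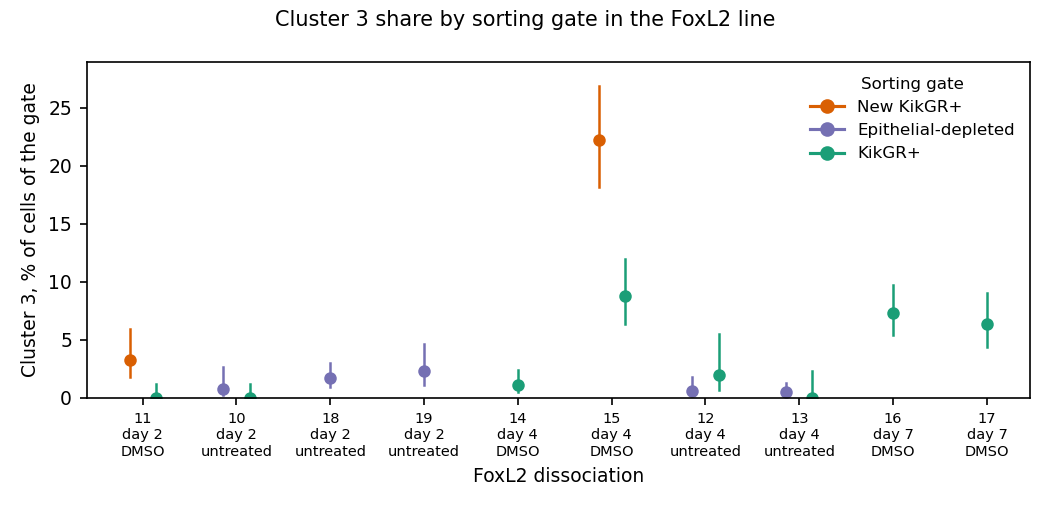
Share of cluster 3 among the cells of each sorting gate (y axis, percent) in the 10 FoxL2 dissociations (x axis, by day and treatment). Points are gates within a dissociation and bars are 95% Wilson intervals. The new gate of dissociation 15 reaches 22.2%, against 8.77% in its KikGR+ gate.

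Restricted to the KikGR+ gate, the share of cluster 3 averaged 4.82% ± 3.24 in Elav (n = 8), 3.18% ± 3.67 in FoxL2 (n = 8) and 8.62% ± 5.04 in SoxC (n = 9). FoxL2 minus SoxC was then -5.44 points (exact permutation test, adjusted p = 0.0536). With both restrictions, DMSO dissociations and the KikGR+ gate, it was -3.92 points (exact permutation test, adjusted p = 0.299). SoxC can be compared with the other lines at matched treatment only among DMSO dissociations, whereas Elav and FoxL2 can also be compared among untreated ones. Among untreated dissociations over all gates, Elav averaged 2.95% ± 1.39 (n = 4) and FoxL2 1.12% ± 0.835 (n = 5). That difference was 1.83 points (exact permutation p = 0.0556, adjusted p = 0.313). It was not matched for the gate: all 5 FoxL2 dissociations included an epithelial-depleted sort, and Elav had the KikGR+ gate only. In the KikGR+ gate alone the untreated FoxL2 mean was 0.637% (n = 3).

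Colour classes were given for cells of the KikGR+ gate only. Of the 655 cluster 3 cells, 537 had a class and 118 had none. The 118 comprised all 88 of the new gate, all 27 of the epithelial-depleted gate and 3 of the KikGR+ gate. Within the KikGR+ gate, other cells lacked a class more often in some dissociations. In SoxC dissociation 3 all 40 cluster 3 cells had a class, against 13 of 24 other Gastrodermis cells. In Elav dissociation 22 the counts were 24 of 26 and 35 of 48. The effect of missing classes on the colour comparisons was not tested. The cut-offs behind the classes green, orange and red are not given in the sources used here.

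Red cells were scarce in cluster 3. Pooled over dissociations, 331 were green (61.6%), 196 orange (36.5%) and 10 red (1.86%). Of 967 coloured cells in the other Gastrodermis clusters, 56.9% were green, 32.1% orange and 11.1% red. Among these clusters the red share was 14.2% in cluster 2, 10.4% in cluster 8 and 0% in cluster 30. A low red share was thus not particular to cluster 3. Of 7306 coloured cells outside Gastrodermis, 21.9% were green, 47.5% orange and 30.6% red. The lines weigh unequally in these pools, since SoxC supplied 292 of the 537 coloured cluster 3 cells.

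By line, green was the most frequent class of cluster 3 in Elav and SoxC and orange in FoxL2. In Elav 57.6% of its 132 coloured cells were green, 38.6% orange and 3.79% red. In FoxL2 32.7% of 113 were green, 63.7% orange and 3.54% red. In SoxC 74.7% of 292 were green, 25% orange and 0.342% red. Its red share was thus low in each line, while the order of green shares within Gastrodermis was not the same across lines. In Elav the green share of cluster 3 stood next to 62.4% in cluster 2, 37.3% in cluster 8 and 59.1% in cluster 30. In SoxC it stood next to 70.2%, 92.4% and 94.2% in the same clusters, and in FoxL2 next to 24.5%, 40.7% and 38.8%.

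Red cells of cluster 3 were found in 5 dissociations. There was 1 in FoxL2 dissociation 14 and 1 in SoxC dissociation 4, both with DMSO. There were 3 in Elav dissociation 21, 2 in Elav dissociation 25 and 3 in FoxL2 dissociation 12, all untreated. In sum, 2 of 498 coloured cluster 3 cells were red with DMSO (0.402%), against 8 of 39 untreated (20.5%). The other Gastrodermis clusters had 7.24% red cells with DMSO and 45.4% untreated, and cells outside Gastrodermis had 28.8% with DMSO and 37.6% untreated. With DMSO the red share was 12.4% in cluster 2, 1.80% in cluster 8 and 0% in cluster 30. Among untreated cells it was 35.9% in cluster 2 and 51.7% in cluster 8. With 3 untreated dissociations of at least 5 coloured cluster 3 cells, all of them Elav, the difference by treatment was not tested.

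Cluster 3 was then compared with other cells of the same dissociation. Over the 19 dissociations with at least 5 coloured cells of each kind, 4.39% ± 9.92 of cluster 3 cells were red, against 13.9% ± 16.7 of the other Gastrodermis cells. The difference of -9.54 points was below 0 in 16 dissociations, above 0 in 1 and 0 in 2 (sign-flip permutation p = 0.00031, adjusted over 4 clusters p = 0.00124). By line it averaged -14.5 points in Elav (n = 7), -2.62 in FoxL2 (n = 4) and -8.70 in SoxC (n = 8). Of the 4 Gastrodermis clusters, 75% passed this comparison in either direction and 50% with a lower red share. Among DMSO dissociations alone (n = 16), the cells that were not red made up 5.91 points more of cluster 3 than of the other Gastrodermis cells (permutation test, adjusted p = 0.00442). Pooled over all DMSO dissociations, 58 of the 63 red cells of the other Gastrodermis clusters were in cluster 2.

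Green cells made up 60.2% ± 27.4 of coloured cluster 3 cells and 53.2% ± 28.1 of the other coloured Gastrodermis cells in the same 19 dissociations. The difference of 6.95 points was positive in 15 of 19 (sign-flip permutation p = 0.00471, adjusted p = 0.0188), and 25% of the 4 clusters passed. By line, it averaged 12.2 points in Elav (positive in 7 of 7), 2.60 in FoxL2 (2 of 4) and 4.50 in SoxC (6 of 8). SoxC dissociation 7, with 6.45% green in cluster 3, had only 2 other Gastrodermis cells and did not enter. Over pooled SoxC cells the order was the opposite, with 74.7% green in cluster 3 and 80.5% in the other Gastrodermis clusters. With a minimum of 10 coloured cells of each kind it was 5.06 points in 15 dissociations and no longer passed (permutation test, adjusted p = 0.0726). Orange cells made up 35.4% ± 25.0 of cluster 3 and 32.8% ± 22.6 of the others, a difference of 2.59 points that did not pass (permutation test, adjusted p = 0.826; 0% of the 4 clusters passed). Of the 3 classes, red and green thus passed against the other Gastrodermis cells and orange did not.

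Against cells outside Gastrodermis the contrast was wider. Over 20 dissociations, 57.5% ± 29.3 of cluster 3 cells were green, against 25.4% ± 17.8 of the outside cells. The difference of 32.1 points was positive in 18 of 20 (sign-flip permutation p = 0.00024, adjusted over 36 clusters p = 0.00288). Of the 36 clusters with enough coloured cells, 38.9% passed in either direction and 13.9% with a higher green share. The 2 exceptions were SoxC dissociation 7, with 6.45% green in cluster 3 against 62.2% outside, and Elav dissociation 25, with 27.3% against 38.8%.

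Red cells made up 4.17% ± 9.71 of cluster 3 and 27.9% ± 14.4 of the outside cells in these 20 dissociations. The difference of -23.8 points was below 0 in 19 of 20 (sign-flip permutation p = 1e-05, the smallest these permutations can give, adjusted p = 0.00036), and of the 36 clusters 30.6% passed in either direction and 16.7% with a lower red share. Orange cells made up 38.3% ± 27.6 of cluster 3 and 46.7% ± 15.8 of the outside cells, which did not pass (permutation test, adjusted p = 0.336; 2.78% of the 36 clusters passed). Leaving out any 1 dissociation kept the red difference between -25.1 and -22.7 points against outside cells, and between -10.6 and -8.22 points against other Gastrodermis cells.

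**Figure D4:**
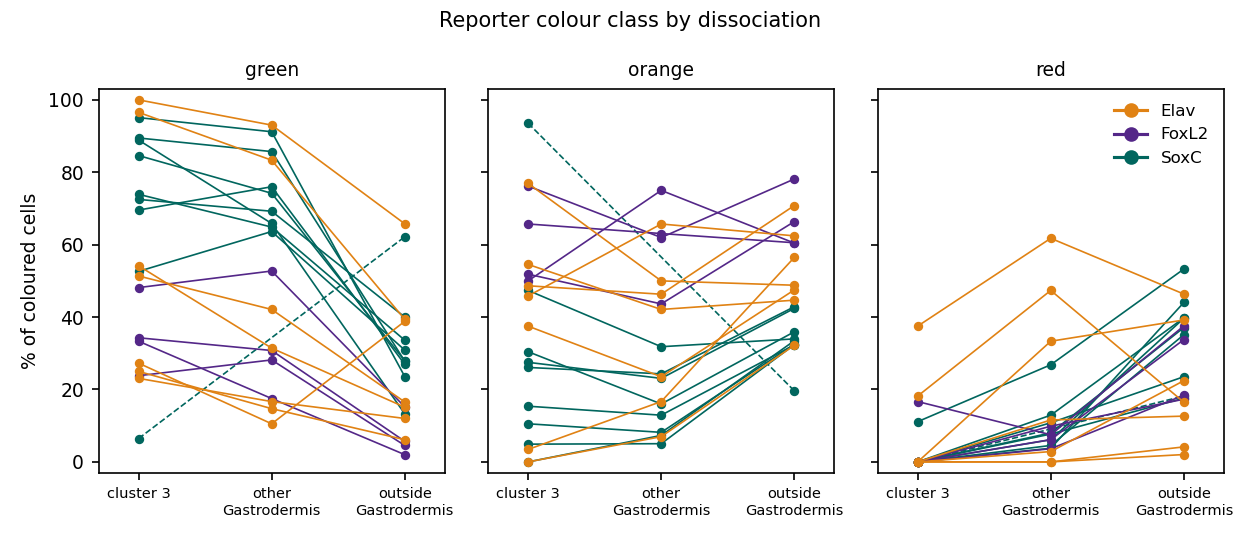
Green, orange and red share of coloured cells (y axis, percent, 1 panel per class) for cluster 3, the other Gastrodermis clusters and cells outside Gastrodermis (x axis). Each line is 1 of 20 dissociations, coloured by reporter line, and the dashed line is SoxC dissociation 7, which lacks a middle value because only 2 other Gastrodermis cells had a class. Most red points of cluster 3 lie at 0, and its highest is 37.5%.

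The green share of cluster 3 varied with the line and the dissociation. In Elav it was 54.2% with DMSO, against 23.1% and 25% untreated on day 2. It was 96.6% and 51.4% on day 4, both with DMSO, and on day 7 it was 100% with DMSO, where all 6 coloured cells were green, against 27.3% untreated. The DMSO values of Elav thus lay above its 3 untreated ones without overlap, which was not tested. The other Gastrodermis cells of the same dissociations did not overlap either, with 31.4% to 93.0% green with DMSO and 10.5% to 16.7% untreated. Elav dissociation 26, untreated, had only 4 coloured cluster 3 cells, of which 2 were green, and was not used. Its 7 other coloured Gastrodermis cells were 42.9% green, which lies within the DMSO range of 31.4% to 93.0%. With this dissociation the other Gastrodermis cells thus did overlap.

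In FoxL2 the green share of cluster 3 was 33.3% and 34.3% on day 4 and 23.8% and 48.1% on day 7, all with DMSO. No FoxL2 dissociation of day 2 had a coloured cluster 3 cell. In SoxC the green share was 95.1% on day 2, and 69.6%, 72.5% and 88.9% on day 4. On day 7 it was 52.6%, 73.9%, 6.45%, 84.6% and 89.5%. Apart from dissociation 7, with 6.45%, the SoxC values all lay above the highest FoxL2 value. This was not particular to cluster 3. Among dissociations with at least 5 other coloured Gastrodermis cells, the lowest SoxC green share of those cells was 63.6%. The highest FoxL2 one was 52.7%.

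The green share of cluster 3 averaged 53.9% ± 32.8 in Elav (n = 7), 34.9% ± 10.0 in FoxL2 (n = 4) and 70.3% ± 27.2 in SoxC (n = 9). FoxL2 minus SoxC was -35.5 points, which did not pass (exact permutation p = 0.0364, adjusted over 62 tests p = 0.133). Without SoxC dissociation 7 the difference was -43.4 points and passed (exact permutation test, adjusted p = 0.0206). Elav minus SoxC was -16.4 points (exact permutation test, adjusted p = 0.432) and Elav minus FoxL2 19.0 points (exact permutation test, adjusted p = 0.454). All FoxL2 and SoxC dissociations in these comparisons had DMSO, while 3 of the 7 Elav ones were untreated. Among DMSO dissociations alone, Elav minus SoxC was 5.17 points, opposite in sign (exact permutation test, adjusted p = 0.837), and Elav minus FoxL2 40.6 points (exact permutation p = 0.0286, adjusted p = 0.145). Of the clusters with enough coloured cells, 5.88% passed between Elav and SoxC, 28% between FoxL2 and SoxC and 15% between Elav and FoxL2.

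For cluster 2 the green share differed by -43.0 points, FoxL2 minus SoxC, and passed (exact permutation test, adjusted p = 0.012). The dissociations were not the same ones: FoxL2 dissociation 11 entered for cluster 2 only, and SoxC dissociation 7 for cluster 3 only. Without SoxC dissociation 7 the cluster 3 difference was -43.4 points (exact permutation test, adjusted p = 0.0206). Whether clusters 2 and 3 differ in this respect was not tested.

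Pooled by line and day, green cells made up 40% of the 45 coloured cluster 3 cells of Elav on day 2, 71.2% of 66 on day 4 and 52.4% of 21 on day 7. In FoxL2 they made up 31.8% of 44 on day 4 and 33.3% of 69 on day 7. In SoxC they made up 95.1% of 102 on day 2, 73.6% of 72 on day 4 and 57.6% of 118 on day 7. The highest pooled value was that of day 4 in Elav and that of day 2 in SoxC. However, the Elav pools mixed treatments unequally: both day 4 dissociations had DMSO, while days 2 and 7 included untreated ones. Among DMSO dissociations alone, the Elav values were 54.2% on day 2, 96.6% and 51.4% on day 4, and 100% on day 7 (6 coloured cells). The SoxC value of day 2 came from 1 dissociation.

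The common slope of the green share was 0.0053 points per day (permutation within lines, p = 0.999, adjusted over 36 clusters p = 1), and 5.56% of the 36 clusters passed, all of them upwards. Single-line slopes were 5.91 points per day in Elav (n = 7, exact permutation p = 0.348), 0.723 in FoxL2 (n = 4, exact permutation p = 1) and -6.07 in SoxC (n = 9, exact permutation p = 0.254). The slopes of the red and orange shares of cluster 3 were -0.889 and 0.883 points per day (permutation tests, adjusted p = 0.764 and 0.976), and 0% of the 36 clusters passed either test.

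The pooled SoxC value of day 7 includes dissociation 7. There 29 of 31 coloured cluster 3 cells were orange and 2 green, while the other 4 dissociations of that day ran between 52.6% and 89.5% green. The outside cells of dissociation 7 were 62.2% green, above every other SoxC dissociation.

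Across the 27 dissociations, the share of cluster 3 varied together with that of the other Gastrodermis clusters, taken among cells outside cluster 3. Pearson's r was 0.685 (permutation p = 0.00013, adjusted over 6 values p = 0.00078) and Spearman's rho 0.654 (permutation p = 0.00037, adjusted p = 0.00111). Without dissociations 1 and 23, the ones farthest from the median, r was 0.57 and rho 0.592.

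The same relation was computed within each treatment. Among the 18 DMSO dissociations r was 0.529 and rho 0.503 (permutation tests, adjusted p = 0.0351 and 0.0359), but without the same 2 dissociations r was 0.322 and rho 0.368, so it rested in part on them. Among the 9 untreated dissociations r was 0.737 and rho 0.733 (exact permutation tests, adjusted p = 0.0351 and 0.0359), and without dissociations 20 and 21 r was 0.786 and rho 0.536. None of these permutations, nor those over all dissociations, held the line or the sorting gate fixed. All 5 untreated FoxL2 dissociations included an epithelial-depleted sort, and FoxL2 dissociations 11 and 15, with DMSO, a sort through the new gate. Untreated Elav and FoxL2 differed in mean share of all cells, for cluster 3 (2.95% and 1.12%) and for the other Gastrodermis clusters (6.90% and 2.81%). The part of the line and of the gate in these correlations was not tested.

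By rank correlation of shares over the same 27 dissociations, the fine clusters most like cluster 3 were cluster 36, annotated as Secretory pl2 (rho 0.561), cluster 22, Neural 2 WFSa (rho 0.518), and cluster 8, the parietal muscle cluster (rho 0.504). Those least like it were cluster 15, Neural 2 ilp7 (rho -0.771), cluster 31, Neural 1 FRPa (rho -0.632), and cluster 5, Neural 1 (rho -0.605). All shares in a dissociation have the same total, and they share line and treatment, so these values are a description only.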

How the data were processed

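Single cells of 84 MARS-seq libraries (a plate-based single-cell RNA-seq method) were described from the cell table deposited by the authors, which gives each cell's library, line, day, gate, medium, dissociation, fine and broad cluster and reporter colour class as categories and has no other unit. Reads were processed with STARsolo and STAR 2.7.10b, per the submitters' processing notes; filters, clustering settings, doublet treatment and colour cut-offs are not given in the sources used here. The categories deposited for line, day, medium and dissociation differed from the labels in 0 cells. Wells with a sorted cell were taken from the deposited well lists. The gene annotation was not used, since no gene was tested.

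The replicate was the dissociation, a separate biological sample per the labels, and cells and libraries were never counted as replicates. Precision was set by 245 to 995 cells per dissociation, and molecule depth was not analysed here. Shares in percent were computed per dissociation with 95% Wilson intervals, and for a count of 0 the limit was 3 counts of the total. Intervals and limits reflect counting error alone. Shares within Gastrodermis needed 10 Gastrodermis cells and colour shares 5 coloured cells. In colour comparisons, clusters needed 8 such dissociations for paired tests and slopes, and 3 per line for pairs of lines.

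All tests were two-sided permutation tests over dissociations. Pairs of lines were tested exactly, the slope over days common to the lines by permuting days within lines (100000 resamples), DMSO exactly within line and day (216 arrangements, smallest p 0.00463), and colour by flipping signs of paired differences within dissociations. Benjamini-Hochberg adjustment was made over all fine clusters of a comparison, with a threshold of 0.05. Simulated data were used to try the tests of Elav minus SoxC, slope and DMSO for shares of all cells, and the sign-flip test. The outcome is not given here. Shares within Gastrodermis, gates and colour shares were not simulated. Alternatives were a logit scale (0.5 cells added), the KikGR+ gate alone, DMSO or untreated dissociations alone, Neural 1 left out of the total, equal weight per library, other minimum cell numbers, green and orange pooled, day 7 against day 2, permutation within line and treatment, and leaving out each dissociation. Tests of red and orange cells, the correlation with other Gastrodermis clusters, and the alternatives that combine DMSO with another restriction, leave FoxL2 dissociation 15 out of the KikGR+ gate or restrict the paired colour tests to DMSO were chosen after seeing the data. The cluster and the comparisons were chosen with earlier results of these data known. Named beside cluster 3 were, by rule, cluster 2, the other Gastrodermis clusters together and the 3 clusters most and least like it in share; other clusters and single dissociations were named after their values were seen. Python 3.11.15, numpy 2.4.6, pandas 2.3.3 and scipy 1.17.1 were used.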

Additional observations from a re-analysis of the deposited data

Results flagged for a closer look

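In 18 groups of 4 to 10 dissociations, the highest and the lowest value were compared with the rest of the group, and 5 values stood far from the others by Dixon's criterion (chance flags about 1 in 20 groups of continuous values). In SoxC dissociation 7, cluster 3 supplied 93.9% of Gastrodermis cells, apart from the other 4 dissociations of day 7. The same dissociation had 6.45% green cells in cluster 3, apart from the other 8 of the line. SoxC dissociation 4 had 11.1% red cells in cluster 3, which is 1 of 9 coloured cells, where the other 8 had none. FoxL2 dissociation 14 had 16.7% red cells, which is 1 of 6, where the other 3 FoxL2 dissociations with DMSO had none. In Elav dissociation 21, cluster 3 supplied 19.0% of Gastrodermis cells, below the other 3 untreated Elav dissociations. The red values rest on single cells in groups where every other value was 0, so any red cell would have stood out there and the chance rate does not apply to them. The causes were not tested.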

How the results depend on the processing

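Of 384 alternative values for 17 results, 353 kept their direction and their side of the threshold and 31 did not. For the share of all cells, FoxL2 minus SoxC passed on the logit scale (-1.34), and leaving out each dissociation gave -6.18 to -3.90 points. The slope per day was 0.00892 on the logit scale, opposite in sign, and lay between -0.480 and 0.0117 points with a dissociation left out, where SoxC dissociation 1 turned it (0.0117). The epithelial-depleted minus KikGR+ difference was 0.387 on the logit scale, opposite in sign, and -0.414 to 0.605 points with a dissociation left out, where dissociation 12 turned it. Within Gastrodermis, leaving out a dissociation gave -21.3 to -11.8 points for Elav minus SoxC, -22.6 to -13.2 for FoxL2 minus SoxC and -0.669 to 3.83 for Elav minus FoxL2, which turned without FoxL2 dissociation 10, 11 (-0.290) or 14 (-0.229) and was -2.16 among DMSO dissociations alone. For the green share, Elav minus SoxC was 5.17 points among DMSO dissociations alone, opposite in sign, Elav minus FoxL2 was -3.79 with green and orange together, and FoxL2 minus SoxC lay between -43.4 and -31.8 with a dissociation left out. The green slope, near 0, changed sign on the logit scale (-0.0386), when days were permuted within line and treatment (-0.729), among DMSO dissociations alone (-1.17) and at 10 coloured cells (-3.40), and lay between -2.74 and 1.72 without single dissociations. Green in cluster 3 minus other Gastrodermis cells no longer passed at 10 coloured cells (5.06). The cause of each change was not tested. Untreated dissociations alone could not be used for pairs with SoxC, which had none, nor for the green share of Elav and FoxL2. Differences resting on fewer than 10 cluster 3 cells in a dissociation are limited by cell number.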

Other observations

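A library held the odd wells or the even wells of a plate. On the 38 plates with both libraries sorted through 1 gate, cluster 3 made up 6.29% of cells in odd-well and 5.06% in even-well libraries. The odd-well share was the higher one on 23 plates, the even-well share on 13, and they were equal on 2. The difference averaged 1.22 points with an SD of 3.73, and the widest gap on a plate was 9.52 points. For cluster 2 the odd-well share was the higher one on 22 plates and the even-well share on 16, with a mean difference of 0.540 points. No test was made.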
